A study of Mus musculus with 2 samples.

Results

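The miR-181 family of the mouse comprises 6 miRNA genes, Mir181a-1, Mir181b-1, Mir181a-2, Mir181b-2, Mir181c and Mir181d, and all 6 were taken here by gene identifier from the 1973 miRNA rows of each deposited table. They were measured by microRNA-seq, which counts short RNAs, in hearts of healthy B6NCrl mouse embryos at 13.5 days. The 2 libraries, biological replicates 1 and 2, came from separate biosamples of 1 donor record, each pooled from males and females. The labels give no treatment, no allele and no other age, so there is 1 group (n = 2) and the comparisons run between genes, between genomic pairs and between the libraries.

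A miRNA gene is transcribed into a longer RNA whose hairpin is cut into a 5p and a 3p strand, and the strand that is loaded into Argonaute represses mRNAs that match its seed, bases 2 to 8. Hairpins that lie close together on 1 strand are commonly made from 1 primary transcript. The miR-181 family is best known from lymphocytes, where miR-181a tunes T cell receptor signalling in the mouse thymus. In endothelium miR-181b is known to dampen NF-κB signalling, and in rat cardiomyocytes miR-181c is known to enter mitochondria and repress a mitochondrial cytochrome oxidase mRNA.

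The genes form 3 pairs. On chromosome 1, Mir181a-1 (ENSMUSG00000065565.1, chr1:137966455-137966541) and Mir181b-1 (ENSMUSG00000065458.1, chr1:137966639-137966718) lie on the plus strand with 97 nucleotides between their hairpins. GENCODE M21 places both in an intron of the noncoding transcript Gm4258 on the same strand. An exon of the lincRNA A430106G13Rik covers Mir181b-1 and overlaps the end of Mir181a-1. On chromosome 2, Mir181a-2 (ENSMUSG00000065423.1, chr2:38852735-38852810) and Mir181b-2 (ENSMUSG00000065578.1, chr2:38853830-38853918) lie on the plus strand, 1019 nucleotides apart. They are antisense to an intron of Nr6a1, a nuclear receptor gene, and no annotated transcript on their own strand covers them. Mir181b-2 also lies opposite to an exon of Gm44144. On chromosome 8, Mir181c (ENSMUSG00000065483.1, chr8:84178873-84178961) and Mir181d (ENSMUSG00000076338.1, chr8:84178716-84178787) lie on the minus strand, 85 nucleotides apart, in an intron of Nanos3, a germ cell gene, on the same strand. All coordinates are mm10 (GRCm38), 1-based.

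The mature sequences, from the RefSeq table on GRCm38.p6, are printed because they decide which loci a read can be assigned to. Capitals mark the seed. The 5p strands share 1 seed in all members, and in that table these 6 loci were the only ones that carried it.
miR-181a-5p: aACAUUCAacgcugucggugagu
miR-181b-5p: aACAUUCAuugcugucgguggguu
miR-181c-5p: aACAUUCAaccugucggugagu
miR-181d-5p: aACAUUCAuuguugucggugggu
The first of these is the same at Mir181a-1 and Mir181a-2, and the next is the same at Mir181b-1 and Mir181b-2, whereas miR-181c-5p and miR-181d-5p each occur at 1 locus. Counted in single-base edits, miR-181a-5p and miR-181c-5p differ by 1 and miR-181b-5p and miR-181d-5p by 2. With positions counted from 1 at the 5′ end, miR-181a-5p differs from miR-181d-5p by A9U, C10U, C12U and A21G. Over the 23 bases of miR-181d-5p, miR-181b-5p differs from it by C12U alone.

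The 3p strands differ at every locus, so all 6 have a sequence of their own. Their seeds fall into 4 kinds.
miR-181a-1-3p: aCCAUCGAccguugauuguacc
miR-181c-3p: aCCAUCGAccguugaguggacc
miR-181a-2-3p: aCCACCGAccguugacuguacc
miR-181b-1-3p: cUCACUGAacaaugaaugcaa
miR-181b-2-3p: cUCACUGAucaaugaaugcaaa
miR-181d-3p: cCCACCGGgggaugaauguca
The seed of miR-181a-1-3p is that of miR-181c-3p, from which it differs by U16G and U19G. It differs from miR-181a-2-3p by U5C, inside the seed, and by U16C. The seed of miR-181b-1-3p is that of miR-181b-2-3p, and over the first 21 bases they differ by A9U.

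The hairpins of the 4 members with a repeated 5p strand are shown to mark how far the identity runs past the mature strand. Capitals are the longest run in common with the other locus of the same miRNA.
Mir181a-1: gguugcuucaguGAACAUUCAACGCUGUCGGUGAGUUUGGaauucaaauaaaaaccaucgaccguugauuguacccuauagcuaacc
Mir181a-2: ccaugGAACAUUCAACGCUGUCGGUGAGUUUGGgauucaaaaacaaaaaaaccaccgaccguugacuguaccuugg
Mir181b-1: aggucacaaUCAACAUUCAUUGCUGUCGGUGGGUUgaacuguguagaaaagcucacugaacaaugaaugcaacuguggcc
Mir181b-2: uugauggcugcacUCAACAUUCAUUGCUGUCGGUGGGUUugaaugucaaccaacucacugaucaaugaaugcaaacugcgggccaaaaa
The run of Mir181a-1 and Mir181a-2 is 28 nucleotides long and goes 4 bases past the 3′ end of miR-181a-5p. The run of Mir181b-1 and Mir181b-2 is 26 nucleotides long and ends with the last base of miR-181b-5p. A read of miR-181b-5p that carries 1 further genomic base at its 3′ end therefore differs between its loci, while one of miR-181a-5p needs 5 further bases.

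**Figure D1:**
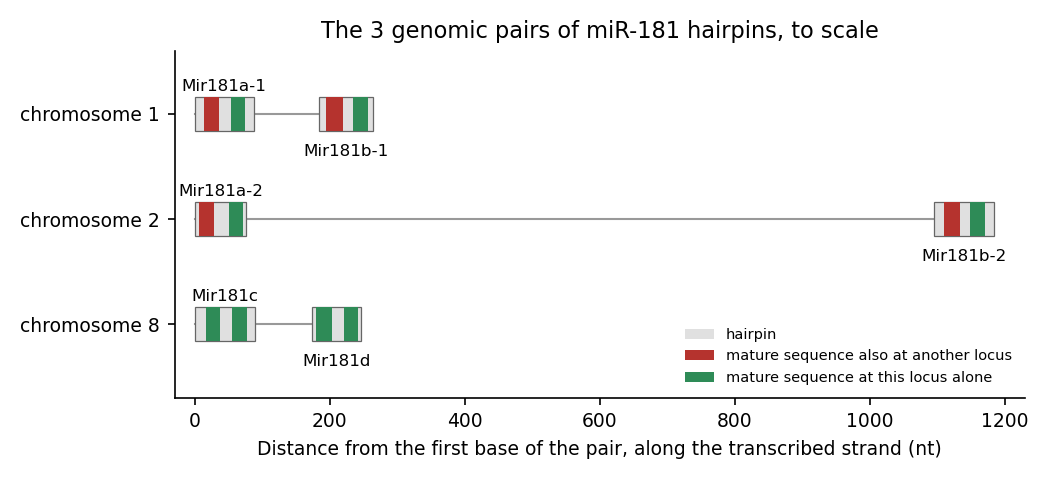
Map of the 3 genomic pairs, with distance in nucleotides from the first base of each pair on the x axis. Grey boxes are hairpins, red boxes are mature strands whose sequence also lies at another locus and green boxes are mature strands at that locus alone; the 5p strands of the chromosome 1 and 2 pairs are red, and both strands of Mir181c and Mir181d are green.

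The libraries held 5569959 sense counts in replicate 1 and 6039005 in replicate 2, and levels are given as counts per 1000000 of these (CPM). Multi-mapping reads are listed as a separate class, 26.9% of all reads in replicate 1 and 28.0% in replicate 2. They are assumed here not to be counted at any gene, since the sources do not say. That class was 84.9 times as large as the counts of all 6 rows in replicate 1 and 78.5 times in replicate 2, and its share from miR-181a-5p or miR-181b-5p was not tested. The counts are per row and do not tell the 5p from the 3p strand. As a read spans a whole mature strand, counts were not divided by hairpin length, which runs from 72 to 89 nucleotides. The tissue label was checked on marker miRNAs: the cardiomyocyte list summed to 50724 and 53395 CPM in replicates 1 and 2, and 5 of 5 markers had counts, although Mir1a-1 and Mir133a-1 stayed under 5 CPM. Both are loci of repeated miRNAs, so these low values describe rows and not the level of the miRNAs. Mir126a, the endothelial marker with a row, had 74876 and 66025 CPM.

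All 6 members were detected in both libraries. Together they held 38423 counts in replicate 1, which is 0.690% of sense counts (exact Clopper-Pearson 95% interval 0.683 to 0.697%). In replicate 2 they held 43766 counts, or 0.725% (0.718 to 0.732%). The 6 rows of the family summed to 7073 ± 247 CPM (SD, n = 2). For scale, the single row of Mir208a, a cardiac miRNA hosted by the myosin gene Myh6, had 7349 and 7178 CPM.

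The row of Mir181c was the highest of the family. It had 14200 counts (2549 CPM) in replicate 1 and 16191 counts (2681 CPM) in replicate 2, a mean of 2615 ± 93.1 CPM. Mir181d, its neighbour, had 12221 counts (2194 CPM) and 13805 counts (2286 CPM), a mean of 2240 ± 65.0 CPM. Both libraries placed Mir181c above Mir181d without overlap, and both rows rest on strands that occur at no other locus of the RefSeq table. Among the 1973 rows they ranked 47 and 53 by mean CPM.

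Mir181b-2 and Mir181a-1 came next and could not be ordered. The row of Mir181b-2 held 5313 counts (954 CPM) in replicate 1 and 7282 counts (1206 CPM) in replicate 2, a mean of 1080 ± 178 CPM. The row of Mir181a-1 held 6141 counts (1103 CPM) and 5927 counts (981 CPM), a mean of 1042 ± 85.6 CPM. Mir181a-1 was the higher row in replicate 1 and Mir181b-2 in replicate 2, so the log2 ratio of Mir181a-1 over Mir181b-2 was -0.04 ± 0.358.

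The rows of the remaining members were far lower. Mir181a-2 had 441 counts (79.2 CPM) in replicate 1 and 432 counts (71.5 CPM) in replicate 2, a mean of 75.4 ± 5.40 CPM. Mir181b-1 had 107 counts (19.2 CPM) and 129 counts (21.4 CPM), a mean of 20.3 ± 1.52 CPM, and ranked 259 of 1973. Mir181a-2 lay above Mir181b-1 in both libraries, by 4.12-fold in replicate 1 (exact 95% interval 3.33 to 5.14) and 3.35-fold in replicate 2 (2.74 to 4.11). The order of rows by level was thus Mir181c, Mir181d, Mir181b-2 with Mir181a-1, Mir181a-2 and Mir181b-1, and only Mir181b-2 and Mir181a-1 changed places between the libraries. If multi-mapping reads are in no row, this order describes the deposited rows and not the mature strands. Since the tissue was sequenced whole, fewer cells of a type and less RNA per cell cannot be told apart at any of these rows.

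**Figure D2:**
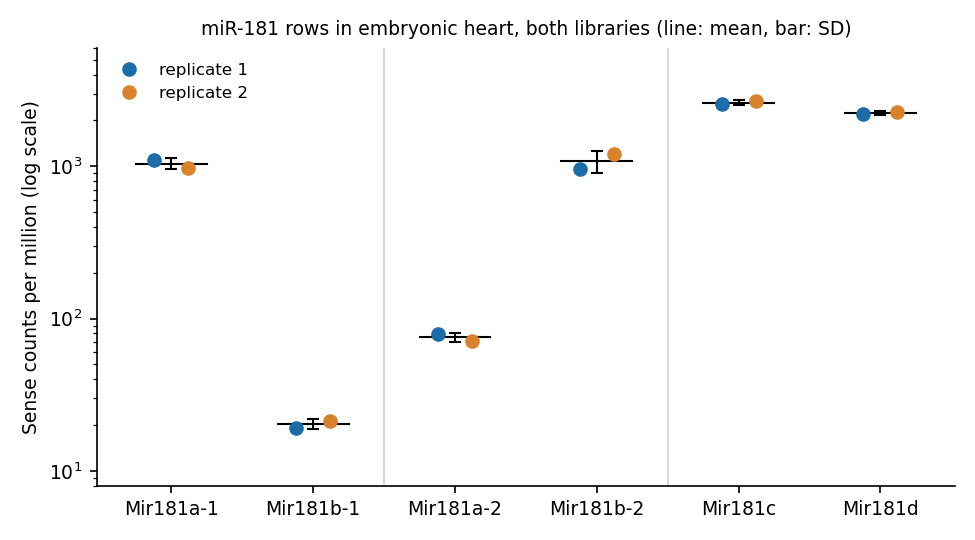
Sense CPM on a log scale for the 6 rows, grouped by genomic pair, with 1 point per library, the mean as a line and the SD as a bar (n = 2). Mir181c and Mir181d sit together at the top, while the chromosome 1 and chromosome 2 pairs each hold 1 row with a mean of 1042 or 1080 CPM and 1 row of 75.4 CPM or less.

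Within the pairs, the balance ran in opposite directions on chromosomes 1 and 2. On chromosome 1, Mir181a-1 exceeded Mir181b-1 by 57.4-fold in replicate 1 (exact 95% interval 47.4 to 70.1) and 45.9-fold in replicate 2 (38.6 to 55.1), a log2 ratio of 5.68 ± 0.227. On chromosome 2, Mir181a-2 was the lower member, with 0.0830 times the counts of Mir181b-2 in replicate 1 (0.0752 to 0.0915) and 0.0593 times in replicate 2 (0.0537 to 0.0654). Its log2 ratio over Mir181b-2 was -3.83 ± 0.343. So the miR-181a row led on chromosome 1 and the miR-181b row on chromosome 2, each in both libraries and by far more than the spread between them.

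On chromosome 8 the members were nearly balanced. Mir181c exceeded Mir181d by 1.16-fold in replicate 1 (1.13 to 1.19) and by 1.17-fold in replicate 2 (1.15 to 1.20), a log2 ratio of 0.22 ± 0.0095. This difference was small but larger than its spread, and its ratio varied least of the 3. The lower rows of the other pairs had far fewer counts, 107 and 129 at Mir181b-1 and 441 and 432 at Mir181a-2. The part of this depth in the spread was not tested. The smallest p that an exact sign-flip permutation test could give with 2 libraries is 0.5, so these ratios carry no p.

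Rows whose genes have the same 5p strand can be compared across pairs. For miR-181a, the row of Mir181a-1 exceeded that of Mir181a-2 by 13.9-fold in replicate 1 (12.6 to 15.4) and 13.7-fold in replicate 2 (12.4 to 15.2), a log2 ratio of 3.79 ± 0.0151. For miR-181b, Mir181b-1 had 0.0201 times the counts of Mir181b-2 in replicate 1 (0.0165 to 0.0244) and 0.0177 times in replicate 2 (0.0148 to 0.0211), a log2 ratio of -5.73 ± 0.131. Each repeated miRNA therefore had nearly all of its assigned counts at 1 of its loci, miR-181a on chromosome 1 and miR-181b on chromosome 2. Whether those counts came from the 5p or the 3p strand was not tested. If multi-mapping reads are in no row, these ratios do not show which locus the repeated 5p strand came from.

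Summed by genomic pair, Mir181c and Mir181d took 68.8% of the family's counts in replicate 1 (68.3 to 69.2%) and 68.5% in replicate 2 (68.1 to 69.0%). Mir181a-2 and Mir181b-2 took 15.0% (14.6 to 15.3%) and 17.6% (17.3 to 18.0%), and Mir181a-1 and Mir181b-1 took 16.3% (15.9 to 16.6%) and 13.8% (13.5 to 14.2%). The chromosome 8 pair was ahead of the chromosome 1 pair by a log2 ratio of 2.19 ± 0.161, or 4.58-fold, and ahead of the chromosome 2 pair by 2.08 ± 0.170, or 4.23-fold. Between the chromosome 1 and chromosome 2 pairs the log2 ratio was -0.12 ± 0.331, with the chromosome 1 pair higher in replicate 1 and the chromosome 2 pair higher in replicate 2. Those pairs did not differ beyond the spread between the libraries.

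By mature 5p name, the rows of miR-181c made up 37.0% ± 0.0265 of the family, those of miR-181d 31.7% ± 0.186, those of miR-181a 15.8% ± 1.84 and those of miR-181b 15.5% ± 2.00. The shares of miR-181a and miR-181b overlapped between the libraries. If multi-mapping reads are in no row, these shares, like the lead of the chromosome 8 pair, describe the deposited rows and not the mature strands.

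**Figure D3:**
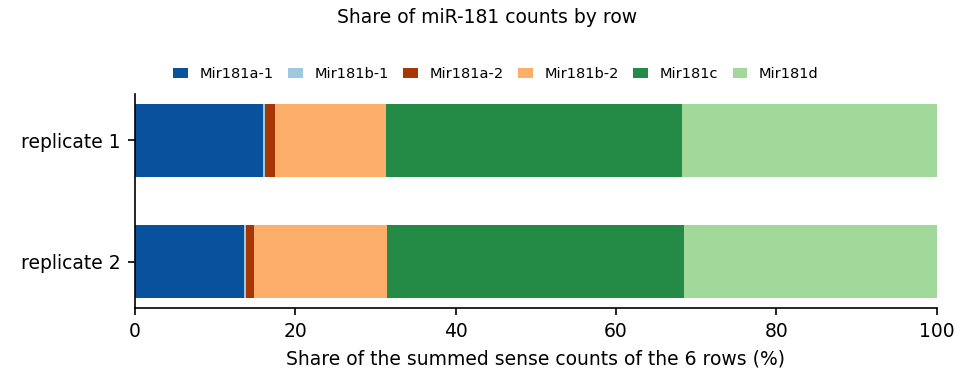
Share of the family's summed sense counts (%, x axis) taken by each of the 6 rows in replicate 1 and replicate 2. Mir181c and Mir181d together take over 68% in both libraries, and Mir181b-1 and Mir181a-2 are the thin bands.

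To see how such an imbalance compares with other repeated miRNAs, every mature sequence found at exactly 2 loci was taken where both loci had a row and the higher row reached 10 CPM in both libraries, a comparison chosen after the levels of the members had been seen. There were 19 such pairs of rows, with a median log2 ratio of higher over lower of 1.98 (values as log2 of CPM + 1). By the mean of the 2 libraries, Mir181b-2 over Mir181b-1 had the largest ratio of the 19 at 5.66 ± 0.136, and Mir181a-1 over Mir181a-2 ranked 3 at 3.77 ± 0.0164. Between them lay Mir92-1 over Mir92-2 at 5.55 ± 0.121, and the smallest ratio was 0.61 for Mir30c-1 over Mir30c-2. These ranks did not hold in each library. In replicate 1 Mir92-1 over Mir92-2 (5.63) lay above Mir181b-2 over Mir181b-1 (5.56). Mir181a-1 over Mir181a-2 lay below Mir7-1 over Mir7-2 in replicate 1 (3.78 against 3.82). In replicate 2 it lay below Mir199a-2 over Mir199a-1 (3.76 against 3.99). Pairs entered through their higher row, whose level bounds the ratio, and at 8 of the 19 that bound lay below 5.66, so those could not have ranked above Mir181b-2. The ratios describe the rows and carry no test.

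**Figure D4:**
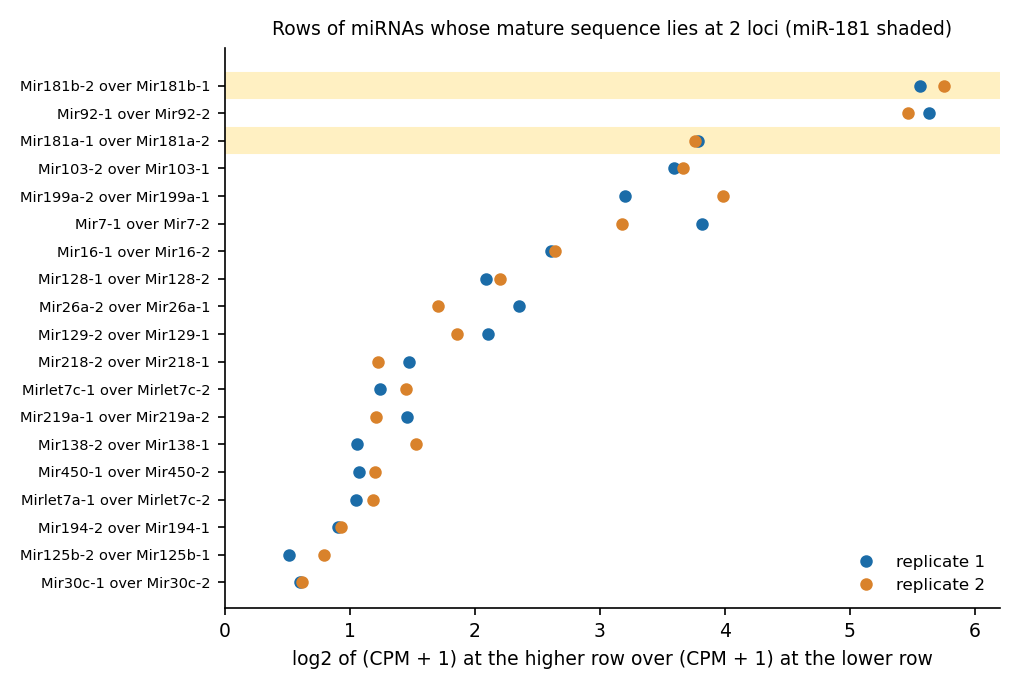
Each line is a mature sequence at 2 loci, and the x axis is the log2 ratio of CPM + 1 at the higher row over the lower row, with 1 point per library. The miR-181 pairs, shaded, rank 1 and 3 of 19 by the mean of the libraries but not in each library, and the median of all 19 is 1.98.

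The members also stood at different places among rows with the same number of repeated strands. Of 582 rows whose gene has a 5p and a 3p sequence in the RefSeq table, 513 share neither with another locus, 53 share 1 and 16 share both. Of those that share neither, 37.0% reached 10 CPM in both libraries, against 58.5% of those that share 1 and 12.5% of those that share both. Mir181c and Mir181d, which share neither, ranked 39 and 45 of the 513 by mean CPM. Of the 53 rows that share 1 strand, with a median of 20.7 CPM and a maximum of 1977 CPM, Mir181b-2 ranked 3, Mir181a-1 4, Mir181a-2 14 and Mir181b-1 28. Mir181b-1 thus lay at about the median of its class and the other members above it.

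Between the libraries the members differed by small ratios. In a two-sided exact binomial test with Benjamini-Hochberg adjustment over the 288 rows at a mean of 10 CPM or more, a comparison of 2 sets of reads rather than of conditions, 4 of 6 members had an adjusted p under 0.05. Over all rows this was 177 of 288, or 61.5%, so the members' count is near the background. These p-values cover counting error only and take PCR copies as independent reads. None of the 6 also reached a ratio of 1.5, against 5.9% of all rows. Of the 4, Mir181a-1 was higher in replicate 1 and Mir181b-2, Mir181c and Mir181d were higher in replicate 2.

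Mir181b-2 had the largest difference, with a log2 of replicate 1 over replicate 2 of -0.34 (adjusted p = 5.39e-38, exact binomial test). This absolute ratio was larger than that of 80.6% of the rows tested on total counts. Under TMM scaling the absolute ratio of Mir181b-2 exceeded that of 90.3% of rows, and with DESeq2 size factors that of 91.3%. Mir181a-1 had 0.17 (adjusted p = 5.83e-10, exact binomial test), near the median absolute ratio of 0.16 over all rows on total counts. With DESeq2 size factors its log2 was 0.05 and no longer passed (adjusted p = 0.0869, exact binomial test). Mir181c and Mir181d were both slightly higher in replicate 2, at -0.07 (adjusted p = 3.02e-05, exact binomial test) and -0.06 (adjusted p = 0.00199, exact binomial test). These absolute ratios were larger than those of 19.1% and 15.3% of rows on total counts, but of 53.5% and 51.7% under TMM scaling, where the values were -0.18 for Mir181c and -0.16 for Mir181d. Mir181a-2 at 0.14 (adjusted p = 0.192, exact binomial test) and Mir181b-1 at -0.15 (adjusted p = 0.503, exact binomial test) did not pass the test at their lower counts. On total counts the absolute ratios of Mir181b-1, Mir181a-1 and Mir181a-2 exceeded those of 43.4%, 51.7% and 43.1% of rows. Under TMM scaling these shares were 70.5%, 23.6% and 15.3%. The median log2 of all 288 rows was itself 0.10 on total counts. Relative to that median, Mir181a-1 stood at 0.07, Mir181a-2 at 0.04, Mir181d at -0.16, Mir181c at -0.17, Mir181b-1 at -0.25 and Mir181b-2 at -0.44. Of the marker lists, the erythroid (1261 and 959 CPM in replicates 1 and 2), leukocyte and lymphoid (662 and 516 CPM) and neural lists (208 and 163 CPM) and Mir126a were higher in replicate 1, while the cardiomyocyte list was higher in replicate 2. Within the leukocyte and lymphoid list Mir155 went the other way, with 146 and 163 CPM. Within the cardiomyocyte list Mir208a (7349 and 7178 CPM) and Mir1a-1 (4.49 and 3.64 CPM) went against the sum. Most of that sum was Mir208b, with 41742 and 44185 CPM. The part of these cell types in the differences at the members was not tested.

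**Figure D5:**
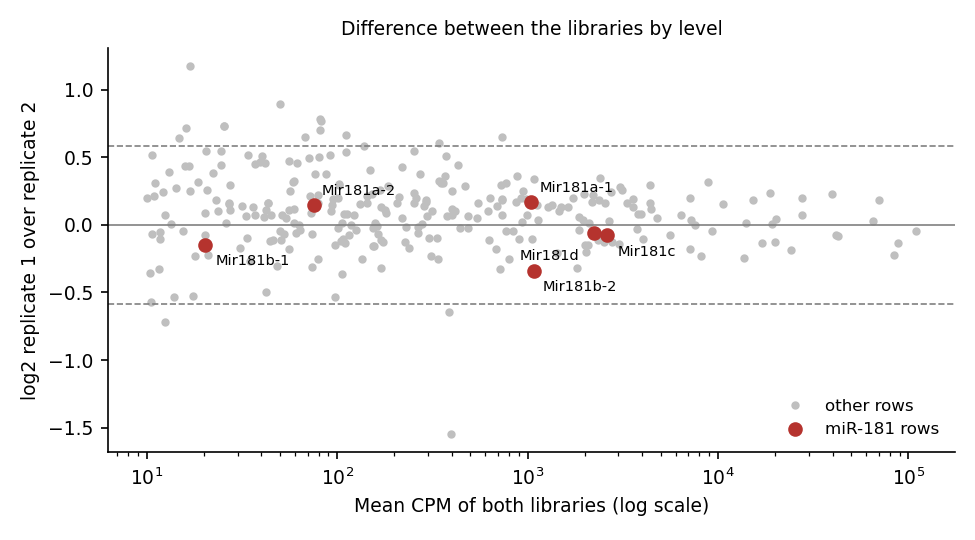
Log2 of replicate 1 over replicate 2 (CPM + 1) against mean CPM on a log scale for 288 rows, with dashed lines at a ratio of 1.5. The 6 miR-181 rows, in red, lie between -0.34 and 0.17, inside the dashed lines.

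The family is known in lymphoid and neural cells, so a leukocyte and lymphoid list and a neural list were measured beside it. The first of these is not of lymphoid cells alone. In the leukocyte and lymphoid list 4 of 5 markers had a row, all with counts, from Mir150 at 10.1 and 8.61 CPM to Mir223 at 441 and 310 CPM in replicates 1 and 2. Mir142 had no row, so the sum of this list leaves it out. In the neural list 8 of 9 had a row, 4 of which (Mir124a-1, Mir124a-2, Mir124a-3 and Mir9-2) had no count in either library, where the limit for a count of 0 is 0.539 CPM (replicate 1) and 0.497 CPM (replicate 2). Repeated loci make up most of the neural list, all 4 rows at 0 included, so its sum describes rows and not the level of the miRNAs. The family sum of 7073 CPM was above the sums of the leukocyte and lymphoid, erythroid and neural lists in both libraries and below those of the cardiomyocyte list and of Mir126a. Which cells held the miR-181 reads was not tested.

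Rows outside the family with the most similar levels were found by the distance of log2(CPM + 1) over the 2 libraries. For Mir181c these were Mir140 (2692 and 2638 CPM in replicates 1 and 2, distance 0.0817) and Mir542 (2408 and 2626 CPM, 0.0876). For Mir181b-2 they were Mir302a (1022 and 1101 CPM, 0.165) and Mir27b (1153 and 1123 CPM, 0.291). For Mir181a-1 they were Mir337 (1052 and 919 CPM, 0.116) and Mir301 (1019 and 966 CPM, 0.116). Over 2 libraries this likeness is one of level.

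Opposite-strand counts at the members were 2 at Mir181a-2 in replicate 2 and 0 elsewhere, below the 3 counts that a count of 0 allows.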

How the data were processed

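MicroRNA-seq was deposited for 2 libraries of embryonic mouse heart, with RNAs below 30 nucleotides selected per the labels. The deposited tables hold raw counts of reads per miRNA gene, on both strands, sense and opposite, made by the authors from reads aligned to mm10 and annotated with GENCODE M4, per the deposited notes. For the aligner, counter and trimming, names and versions were not given in the sources used here. Rows of read classes stayed out of totals and tests. Sense counts were 45.9% and 49.2% of the reads in replicates 1 and 2.

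Identifiers were matched without version to GENCODE M21 on the same build (1894 of 1973, and 6 of 6 members). The identifier of Mir181c carries a later version in M21, and a change of its interval since M4 was not tested. Mature sequences came from RefSeq (GRCm38.p6), which gave 12 entries for the 6 members and 5 hairpins, with no hairpin entry found for Mir181c. Shared sequence was searched among RefSeq miRNAs, not in the genome.

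CPM used the summed sense counts. For shares and ratios within a library, exact 95% intervals follow Clopper and Pearson. They and the limits for a count of 0 cover counting error only, as PCR copies are not independent molecules. Each row was compared between the libraries by an exact conditional binomial test (two-sided) with totals as offset and Benjamini-Hochberg adjustment across all genes whose mean reached 10 CPM. Calls needed an adjusted p under 0.05 together with a ratio, with 1 CPM added to each value, of 1.5 or more. That step was tested on simulated counts that varied by counting error alone. The simulation therefore says nothing about the spread between real libraries. Scaling alternatives used edgeR 4.0.16 and DESeq2 1.42.0 in R 4.3.3. Other work used Python 3.11.15, numpy 2.4.6, pandas 2.3.3, scipy 1.17.1 and matplotlib 3.10.9.

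The members, marker lists and tests were chosen with earlier results of these data known. All members were named, with 2 rows of closest level for the higher member of each pair, and the marker lists. Rows of other repeated miRNAs were named after their values were seen.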

Additional observations from a re-analysis of the deposited data

How the results depend on the processing

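Of 87 values recomputed with both libraries, 76 were taken as unchanged. Levels, shares and ratios among them kept their direction and moved by less than the spread between the libraries. Member differences between the libraries kept their direction and stayed on their side of the threshold. Counts of rows called stayed within 1.5-fold of the main count. Ratios and shares on both strands could hardly move, since the members had 2 opposite counts in all. With 2 libraries, leaving out 1 moves a mean by less than its SD by construction and shows no stability. Totals without the most abundant row gave higher levels of 1171 CPM for Mir181a-1, 22.8 for Mir181b-1, 84.7 for Mir181a-2, 2939 for Mir181c and 2517 for Mir181d, and counts on both strands gave 2483 CPM for Mir181c and 2126 for Mir181d, each from the changed denominator. The log2 ratio of the chromosome 1 pair over the chromosome 2 pair ran from -0.35 without replicate 1 to 0.12 without replicate 2, so its direction rests on the library used. A pseudocount of 1 CPM gave a log2 ratio of Mir181a-1 over Mir181a-2 of 3.77. Between the libraries, 39 of 432 rows tested were called at a mean of 1 CPM or more. At 100 CPM or more it was 6 of 182 and at a ratio of 2 it was 2 of 288, against 17 of 288. TMM scaling and DESeq2 size factors each gave 16 of 288, a pseudocount of 0.1 CPM 18 of 288 and both strands 17 of 296. No member was called under any of the 7 alternatives, but with so few rows called this does not set the members apart. Mir181b-1 and Mir181a-2 fell below the minimum of 100 CPM and had no test there. TMM scaling put the median log2 of all rows at -0.0031 and DESeq2 size factors at -0.02, against 0.10, and each member kept its sign under both. The log2 ratios of Mir181c and Mir181d were then -0.18 and -0.16 under TMM scaling and -0.19 and -0.18 with DESeq2 size factors, against -0.07 and -0.06, and that of Mir181b-2 was -0.44 and -0.45. With DESeq2 size factors 3 of 6 members had an adjusted p under 0.05, as did 164 of the 288 rows tested, so the members' count is near the background. Mir181a-1 lost it there (exact binomial test, adjusted p = 0.0869, log2 0.05). Under TMM scaling its adjusted p was 0.0265 (exact binomial test), and 4 of 6 members and 168 of 288 rows passed. No paired analysis was possible because there is 1 group. With 2 libraries, SDs rest on 1 difference each, and the depth of 107 counts limits Mir181b-1 most.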
